A study of Mus musculus with 10 samples.

Results

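The genes G6pdx, Pgls, Pgd, Rpia, Rpe, Tkt, Taldo1, Me1, Idh1 and Idh2, were followed in the RPE (retinal pigment epithelium), the sheet of cells behind the photoreceptors. They were chosen by function, as the enzymes of the pentose phosphate pathway together with malic enzyme and the NADP-linked isocitrate dehydrogenases, and they are 10 of the 47729 genes in the table. The RNA came from 10 eyes of 5 CD1 mice, which served as wild type in the study, at P40 (postnatal day 40). In each mouse the Nrf2 eye had received AAV-Best1-Nrf2 together with AAV-Best1-GFP, and the GFP control eye AAV-Best1-GFP only, so both eyes carried a virus expressing GFP. AAV is adeno-associated virus, used to bring a gene into cells. The Nrf2 eye thus held 1 vector more, and an equal amount of a vector without Nrf2 was not given to the control eye. The Nrf2 vector held the human cDNA behind a human Best1 promoter, which is active in the RPE, in an AAV8 capsid, whereas the GFP vector was AAV27M8, per the study's methods.

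NADPH is the reduced cofactor that cells spend on regenerating glutathione and thioredoxin and on making lipids. In the oxidative branch of the pentose phosphate pathway, glucose 6-phosphate is oxidised to ribulose 5-phosphate and NADPH is made by glucose 6-phosphate dehydrogenase (G6pdx) and 6-phosphogluconate dehydrogenase (Pgd), with the lactonase Pgls acting between them. The non-oxidative branch (Rpia, Rpe, Tkt, Taldo1) interconverts sugar phosphates and returns them to glycolysis. Cytosolic malic enzyme (Me1) and the isocitrate dehydrogenases of the cytosol (Idh1) and mitochondrion (Idh2) make NADPH from malate and isocitrate. Nrf2 is a transcription factor that responds to oxidative stress, and several of these genes are among its known targets in other cells.

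Of the 10 genes, 3 rose in the Nrf2 eyes and 7 did not pass the test. Pgd rose 4.77-fold, G6pdx 2.39-fold and Taldo1 2.03-fold, each in 5 of 5 mice. The 3 that rose were 2 of the 3 oxidative genes and 1 of the 4 non-oxidative genes, and no gene fell. Over all 16362 genes tested, 3.60% were called higher and 2.73% lower in the Nrf2 eyes. In the same 3 genes every Nrf2 eye lay above every control eye, against 3.87% of all genes tested. The median log2 fold change of the 10 genes was 0.20, beside -0.01 for all genes tested. Each gene was tested by edgeR's quasi-likelihood test, blocked on the mouse, and called where the p-value adjusted over all tested genes (Benjamini-Hochberg) was under 0.05. Values are CPM, the counts scaled to a common library size after TMM scaling, the SE of a log2 fold change comes from the 5 within-mouse differences, and group values are means ± SD.

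**Figure D1:**
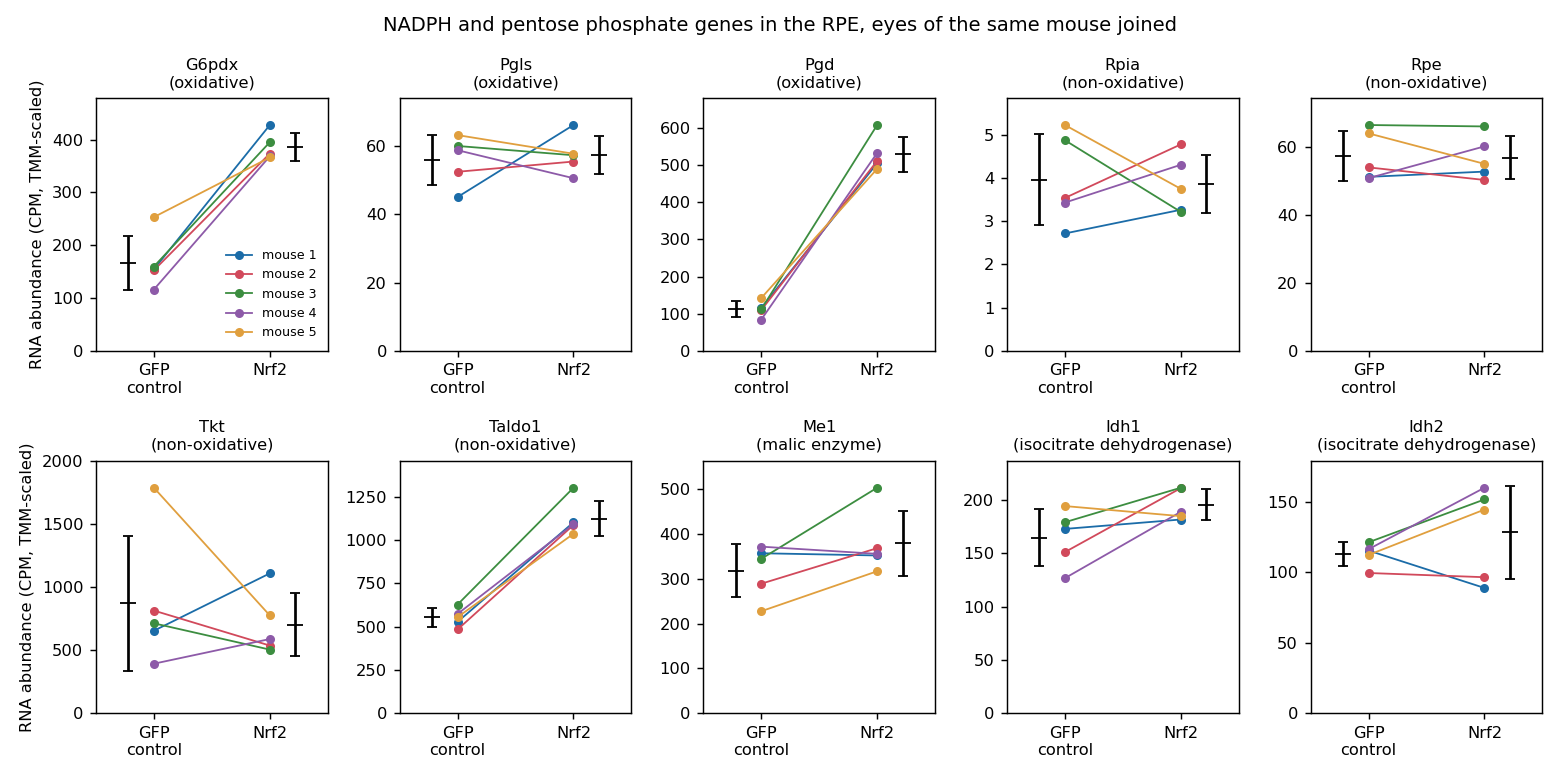
RNA abundance of the 10 genes in each eye, in CPM on a linear axis from 0, with the eyes of 1 mouse joined by a line and the mean ± SD of 5 eyes in black. The 5 Nrf2 eyes lie above all 5 control eyes for G6pdx, Pgd and Taldo1, and the groups overlap in the other 7 panels.

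The gene of the delivered factor was read first. Nfe2l2, which encodes mouse Nrf2, measured 89.5 ± 14.7 CPM in control eyes and 352 ± 57.1 CPM in Nrf2 eyes (n = 5 each). The log2 fold change of this gene was 1.97 (SE 0.11, edgeR adjusted p = 0.00030), higher in 5 of 5 mice. Human Nrf2 reads that aligned to the mouse gene would be part of these counts. Library totals ran from 12298404 to 27310638 counts. Of 12 RPE markers, all but Best1, including Rpe65, Rlbp1 and Rgr, were at 31.6 CPM or more in every library, and Best1 itself measured at most 1.56 CPM. The 12 markers summed to between 23310 and 43760 CPM in control eyes and between 11910 and 32160 CPM in Nrf2 eyes, lower in the Nrf2 eye of every mouse. The 5 that fell by the test were Rpe65, Rlbp1, Rgr, Lrat and Otx2. The others were mixed within mice, as Tyr was higher in the Nrf2 eye of 4 of 5 mice, Ttr, Tyrp1 and Dct of 3, Pmel of 2 and Mitf of 1. Macrophage and microglia markers summed to between 165 and 288 CPM in control eyes and between 331 and 1666 CPM in Nrf2 eyes, higher in 5 of 5 mice, with 10 of 12 called higher. Csf1r made up most of the control sum, at 139 to 249 CPM, and was higher in the Nrf2 eye of 1 of 5 mice. The other 11 markers summed to between 26.1 and 49.0 CPM in control eyes and between 272 and 1452 CPM in Nrf2 eyes. Rod markers stood apart in mouse 2, with 19370 CPM in the control eye and 7443 CPM in the Nrf2 eye, and in the control eye of mouse 4, with 3106 CPM. They summed to between 154 and 499.8 CPM in the other 7 libraries. Skeletal muscle markers spread from 69.2 to 142 CPM in control eyes and from 6.72 to 873 CPM in Nrf2 eyes. The cone sum, 16.6 to 484 CPM in control eyes and 15.1 to 114 CPM in Nrf2 eyes, was lower in the Nrf2 eye of every mouse, with 0 of its 7 markers called. Summed levels of endothelium, fibroblasts, inner retina neurons and adipocytes overlapped between the groups with the Nrf2 eye higher in 3 or 4 of 5 mice, and the adipocyte marker Lep was at 0 in every library. The part of these other cells in the values of the 10 genes was not tested, apart from fits with rod or muscle markers as a covariate. In bulk RNA, fewer cells of a type and less RNA per cell cannot be told apart.

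The reference sequence near the start sites was examined because Nrf2 binds an antioxidant response element. Its core was searched as TGACNNNGC on both strands, in windows from 250 bases before to 50 bases after the RefSeq start sites (GRCm38.p6). All 10 genes had a window and 3 of them had a second, giving 13 windows. The core was present in 3 of the 13 (23.1%), beside 4063 of 32817 windows of all genes (12.4%). The matches are shown, since they belong to 2 genes that rose and to 1 that did not pass the test. Bases of the match are in capitals, and each sequence is on the strand of its gene.

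G6pdx, chrX:74428919-74428947, minus strand: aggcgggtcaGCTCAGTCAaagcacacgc

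Pgd second start site, chr4:149166061-149166089, minus strand: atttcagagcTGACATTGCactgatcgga

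Me1, chr9:86695902-86695930, minus strand: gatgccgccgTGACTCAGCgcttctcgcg

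The G6pdx match begins at position -57 from the start site and reads TGACTGAGC on the opposite strand. All 250 bases before that RefSeq start site lie in an annotated GENCODE exon of G6pdx, so the match is inside the gene. The Pgd match begins at +4 of a start site that lies within the annotated gene, and it is the only one of the 3 followed by the further A of the element. That longer motif occurred in 997 of all windows (3.04%). The Me1 match spans its start site, from -6 to +3, and overlaps TGANTCA, the motif of AP-1 factors. A match is a run of letters in a window, and binding was not measured here. Upstream of the first Pgd start site and of Taldo1, the 2 called genes for which such sequence without exons can be shown, the core was not found in the following stretches.

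Pgd first start site, chr4:149166772-149166955, minus strand: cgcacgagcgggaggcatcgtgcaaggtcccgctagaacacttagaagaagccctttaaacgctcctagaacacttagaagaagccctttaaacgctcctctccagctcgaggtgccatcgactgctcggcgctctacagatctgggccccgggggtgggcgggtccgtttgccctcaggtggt

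Taldo1, chr7:141391910-141392159, plus strand: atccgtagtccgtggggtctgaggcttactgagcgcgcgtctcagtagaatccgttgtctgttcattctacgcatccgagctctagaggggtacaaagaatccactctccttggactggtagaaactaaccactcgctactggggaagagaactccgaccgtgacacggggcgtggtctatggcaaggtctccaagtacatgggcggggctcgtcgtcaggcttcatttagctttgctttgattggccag

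The oxidative branch was compared first, since it contains the NADPH-making steps of the pathway. G6pdx (ENSMUSG00000031400, chromosome X, 74409483 to 74429194, GRCm38), the entry enzyme, stood at 154, 152, 159, 116 and 253 CPM in control eyes, in the order of mice 1 to 5. It stood at 428, 374, 395, 368 and 366 CPM in their Nrf2 eyes. The lowest Nrf2 eye was thus above the highest control eye, and the Nrf2 eyes spanned a narrower range, with a highest to lowest ratio of 1.17 against 2.18 in control eyes. The log2 fold change was 1.26 (SE 0.19, edgeR adjusted p = 0.00661). The smallest difference was in mouse 5, whose control eye was the highest of the 5, and there G6pdx was 1.45-fold higher in the Nrf2 eye. An exon of Ikbkg on the opposite strand overlaps 418 exon bases of G6pdx, and the strand setting of the counting was not stated. Ikbkg had 8819 counts over the 10 libraries against 55920 for G6pdx, and its own log2 fold change was 0.12 (edgeR adjusted p = 0.629). G6pd2, an intronless copy of G6pdx, had 21 counts over the 10 libraries and was not tested.

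Pgd (ENSMUSG00000028961, chromosome 4, 149149991 to 149166771), which releases carbon dioxide and makes the second NADPH of the branch, had the largest fold change of the 10. Control eyes of mice 1 to 5 measured 115, 109, 111, 83.7 and 142 CPM. Their Nrf2 eyes measured 505, 512, 608, 533 and 490.2 CPM. The groups were far apart, as the lowest Nrf2 eye was 3.46-fold above the control eye of its own mouse, which was the highest control eye. The log2 fold change was 2.25 (SE 0.15, edgeR adjusted p = 0.00039). Within each mouse the log2 difference of Pgd exceeded that of G6pdx, by 1.00 ± 0.23 on average (SD, n = 5) and by between 0.66 and 1.26.

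Pgls (ENSMUSG00000031807, chromosome 8, 71592176 to 71601092), the lactonase between those enzymes, did not pass the test. It ranged from 45.1 to 63.3 CPM in control eyes and from 50.6 to 66.2 CPM in Nrf2 eyes, and was higher in the Nrf2 eye of 2 of 5 mice. Its log2 fold change was 0.04 (SE 0.14, edgeR adjusted p = 0.914), with a 95% interval of the mean within-mouse difference from -0.33 to 0.42. That interval does not reach the fitted value of either neighbouring enzyme. Pgls shares 776 exon bases with Fam129c on the same strand, but Fam129c had 313 counts in all against 11145 for Pgls.

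In the non-oxidative branch, Taldo1 (ENSMUSG00000025503, chromosome 7, 141392199 to 141402968), the transaldolase, was the only gene that rose. Control eyes of mice 1 to 5 measured 528, 484, 628, 574 and 555 CPM. Nrf2 eyes measured 1102, 1087, 1301, 1091 and 1036 CPM. The ratio of the eyes was close to the same in each mouse, between 1.87 and 2.25, and the SE was the smallest of the 10 genes. The log2 fold change was 1.02 (SE 0.05, edgeR adjusted p = 0.00233).

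Tkt (ENSMUSG00000021957, chromosome 14, 30548359 to 30574720), the transketolase, works on the same sugar phosphates but varied widely between eyes. Control eyes of mice 1 to 5 measured 656, 816, 715, 394 and 1791 CPM. Nrf2 eyes measured 1111, 538, 506, 590.2 and 777 CPM. The highest and the lowest value were both in control eyes, of mice 5 and 4. The Nrf2 eye was higher in mice 1 and 4 and lower in mice 2, 3 and 5, with a log2 fold change of -0.19 (SE 0.37, edgeR adjusted p = 0.824). The 95% interval of the mean within-mouse difference, -1.23 to 0.85, was the widest of the 10 genes. Without mouse 5 the fitted value was 0.06. Within each mouse the difference of Taldo1 exceeded that of Tkt, by 1.21 ± 0.84 on average (SD, n = 5).

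Rpe and Rpia convert ribulose 5-phosphate to xylulose 5-phosphate and ribose 5-phosphate. Rpe (ENSMUSG00000026005, chromosome 1, 66700831 to 66719805) ranged from 50.9 to 66.6 CPM in control eyes and from 50.4 to 66.2 CPM in Nrf2 eyes. The fitted log2 fold change was -0.01 (SE 0.08, edgeR adjusted p = 0.979), and the 95% interval from -0.22 to 0.21 was narrow. Kansl1l overlaps 558 exon bases of Rpe on the opposite strand and had 3357 counts in all against 11169 for Rpe. Rpia (ENSMUSG00000053604, chromosome 6, 70765720 to 70792232) was the least abundant of the 10, with 54 to 139 counts per library. It ranged from 2.72 to 5.23 CPM in control eyes and from 3.22 to 4.78 CPM in Nrf2 eyes, with a log2 fold change of -0.01 (SE 0.21, edgeR adjusted p = 0.990). Its 95% interval ran from -0.60 to 0.58, so a smaller difference was not detectable at this depth and spread.

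The branches were then set side by side within each mouse, as the mean log2 difference of the 3 oxidative genes and that of the 4 non-oxidative genes. The oxidative mean was 1.18 ± 0.27 (SD, n = 5) and the non-oxidative mean 0.20 ± 0.34. The oxidative mean was the larger in 5 of 5 mice, with a gap of 0.98 ± 0.16 and between 0.86 and 1.24. These averages hide unlike members, since Pgls in the first branch resembled Rpe and Rpia, and Taldo1 in the second was near G6pdx. No test was made of the averages.

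**Figure D2:**
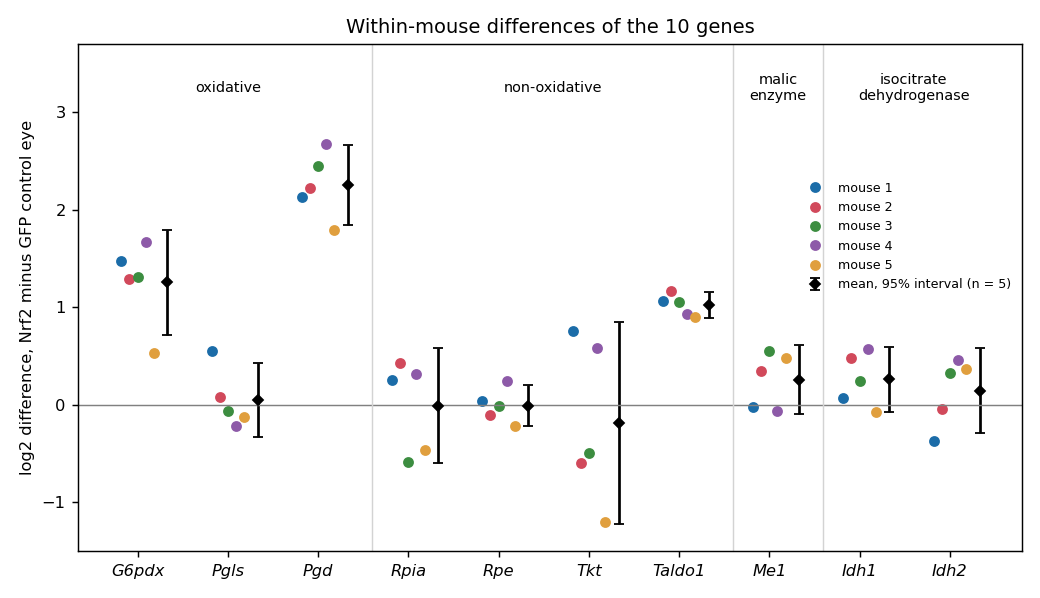
Log2 difference between the Nrf2 eye and the GFP control eye of each mouse for the 10 genes, grouped by branch or enzyme, with the mean and its 95% interval (n = 5) in black. Pgd, G6pdx and Taldo1 lie above 0 in all 5 mice, and the intervals of the other 7 genes include 0, with that of Tkt from -1.23 to 0.85.

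NADPH is also made from malate and isocitrate, and these enzymes did not pass the test. Me1 (ENSMUSG00000032418, chromosome 9, 86581371 to 86695953) measured 356, 289, 344, 371 and 227 CPM in the control eyes of mice 1 to 5. Nrf2 eyes measured 352, 368, 502, 355 and 316 CPM. The eyes of mice 1 and 4 were nearly equal and the Nrf2 eye was higher in mice 2, 3 and 5, which had the lower control values. Me1 had a log2 fold change of 0.26 (SE 0.13, edgeR adjusted p = 0.340), with a 95% interval from -0.09 to 0.61.

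Idh1 (ENSMUSG00000025950, chromosome 1, 65158616 to 65186500) measured 173, 151, 179, 127 and 194 CPM in control eyes. Nrf2 eyes measured 182, 211, 212, 189 and 185 CPM. The Nrf2 eye was higher in 4 of 5 mice, but by less than 1.5-fold in each of them. The log2 fold change was 0.26 (SE 0.12, edgeR adjusted p = 0.305), with a 95% interval from -0.08 to 0.60.

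Idh2 (ENSMUSG00000030541, chromosome 7, 80094846 to 80115392) was steady in control eyes, at 115, 99.5, 121, 116 and 112 CPM. Nrf2 eyes measured 88.9, 96.5, 152, 160 and 144 CPM, below their control eyes in mice 1 and 2 and above them in the other 3. Skeletal muscle markers in the Nrf2 eyes split the same way. They stood at 6.72 and 23.3 CPM in mice 1 and 2 and at 594, 374 and 873 CPM in the other 3. With those markers as a covariate, a fit added after seeing the data, the log2 fold change of Idh2 was 0.10. Whether muscle content had a part in the Idh2 values was not tested. Idh2 had a log2 fold change of 0.15 (SE 0.16, edgeR adjusted p = 0.677), with a 95% interval from -0.29 to 0.58. Without mouse 1 it was 0.31, and with rod markers as a covariate 0.03, and that covariate gave 0.14 for Idh1, none of which passed. The difference of Idh1 exceeded that of Idh2 in 3 of 5 mice, by 0.11 ± 0.39 on average (SD, n = 5) and by between -0.43 and 0.53, so the cytosolic and the mitochondrial enzyme did not separate beyond the spread between mice. Leaving out mouse 1, 2 or 5 moved this mean to 0.03, 0.01 or 0.25.

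Levels were compared between genes per length, as counts per kilobase of merged exons, scaled to the library total (RPKM). In control eyes Taldo1 was the most abundant, at 253 ± 18.1 RPKM (SD, n = 5), and Rpia the least, at 0.73 ± 0.18. Between them followed Tkt (118 ± 70.2), Me1 (82.0 ± 15.6), Idh1 (59.0 ± 8.77), G6pdx (53.7 ± 15.7), Idh2 (43.3 ± 2.43), Rpe (18.3 ± 1.94), Pgd (17.3 ± 3.07) and Pgls (14.7 ± 1.61). Neighbours whose means differed by less than the larger of their SDs were Tkt and Me1, Idh1 and G6pdx, G6pdx and Idh2, Rpe and Pgd, and Pgd and Pgls. In Nrf2 eyes Taldo1 reached 518 ± 31.3 RPKM and was again the highest, G6pdx was second with 126 ± 4.72, and Rpia was again the lowest with 0.73 ± 0.15. Pgd moved from the eighth place to the fifth, at 82.3 ± 5.53, next to Tkt (95.8 ± 32.1) and within its spread, while Me1 was at 98.3 ± 15.2. This order depends on the length used. Per length of the longest coding transcript, Pgd was second in Nrf2 eyes at 239 RPKM, above Tkt at 219 RPKM.

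The control eyes of the 5 mice were not alike in these genes. G6pdx, Pgd, Tkt and Idh1 were each highest in the control eye of mouse 5 and lowest in that of mouse 4. The summed RPE markers ran the other way, with the highest level in mouse 4 and the lowest in mouse 5. That sum was mostly Ttr (19190 CPM) and Rgr (12490 CPM) in mouse 4, and the pigment genes Tyr, Tyrp1, Dct and Pmel of the same list were lowest in that eye. From high to low the RPE sum followed the order of mice 4, 1, 3, 2 and 5, which was also the order of Me1 and the reverse of that of Tkt. Neither order was seen in the Nrf2 eyes, where the RPE sum was highest in mouse 3 and lowest in mouse 2. With 5 eyes a group this is a description, and the part of RPE content in the levels was not tested. Taldo1 followed neither order. Mouse 5 also had the largest contrast of macrophage and microglia markers, 165 CPM in the control eye and 1666 CPM in the Nrf2 eye. That mouse showed the smallest difference of the 5 for each of G6pdx, Pgd and Taldo1, and also for Nfe2l2, at 1.62 on the log2 scale. A link between the marker contrast and these differences was not tested.

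**Figure D3:**
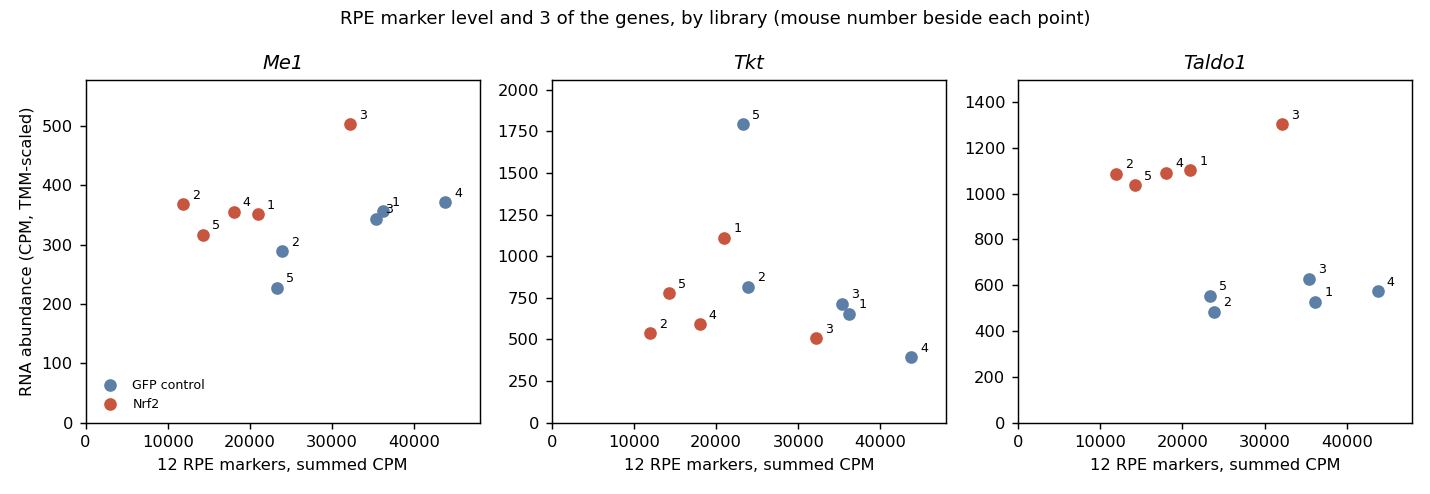
CPM of Me1, Tkt and Taldo1 (linear axes from 0) against the summed CPM of 12 RPE markers, 1 point per library with its mouse number. In control eyes (blue) Me1 is higher and Tkt lower where the RPE sum is higher, and the Nrf2 eyes (red) show Taldo1 at 1036 CPM or more at every RPE sum.

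The genes whose 5 within-mouse differences were most like those of the called genes were sought among 10219 tested genes with a mean of at least 10 CPM. Likeness was the root mean square distance on the log2 scale. For Pgd the nearest was Tpbg, at 0.15, with a log2 fold change of 2.28. For G6pdx it was Tspan17, at 0.22, with a log2 fold change of 1.29. For Taldo1 it was Cbr1, the gene of a carbonyl reductase that uses NADPH, at 0.13, with a log2 fold change of 0.97.

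Genes next to the 10 in metabolism were counted in lists chosen by role. Of 9 other NADPH producers 0 were called by edgeR, DESeq2 or limma voom, and 1 had an unadjusted p under 0.05. Over all genes tested, edgeR called 3.60% higher and 2.73% lower. Their median log2 fold change was -0.01. The 3 most abundant, by the mean over both groups, were the mitochondrial transhydrogenase Nnt (0.23, edgeR adjusted p = 0.569), the glutamate dehydrogenase Glud1 (0.04, edgeR adjusted p = 0.938) and the folate enzyme Aldh1l1 (-0.01, edgeR adjusted p = 0.977). Me3, the mitochondrial NADP-linked malic enzyme, had -0.23 (edgeR adjusted p = 0.289) and the folate enzyme Mthfd2l, the gene with the unadjusted p under 0.05, had -0.59 (edgeR adjusted p = 0.131). Both were lower in 5 of 5 mice and were named after their values were seen. None of the 4 NAD-linked counterparts, which make NADH in place of NADPH, was called by edgeR, DESeq2 or limma voom, or had an unadjusted p under 0.05. With so few genes, 0 calls in either list cannot be told from the shares of 3.60% and 2.73% over all genes. The log2 fold changes of the 3 most abundant were -0.20 for Idh3a, -0.09 for Idh3b and -0.01 for Idh3g. The remaining gene, the malic enzyme Me2, named after its value was seen, had 0.26 (edgeR adjusted p = 0.317).

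Of 13 other pentose phosphate genes, 9 were tested and 1 rose, where 3.60% of all genes tested did. G6pd2, Tktl1, Tktl2 and Prps1l1 had at most 7 counts in any library and were not tested. The gene that rose was Prps2, which uses ribose 5-phosphate to make the precursor of nucleotides, from 53.6 ± 7.24 to 84.8 ± 19.8 CPM. Its log2 fold change was 0.64 (SE 0.12, edgeR adjusted p = 0.0223), higher in 5 of 5 mice, but the call was lost without the mouse block, with rod markers as a covariate, against a 1.5-fold change and on leaving out mouse 2, 3 or 5. Its paralog Prps1 had -0.24 (edgeR adjusted p = 0.492), and Prpsap1 and Dera had -0.14 and 0.00. By edgeR 2 genes of the list had an unadjusted p under 0.05, Prps2 and Shpk. Shpk, named after its value was seen, had -0.49 (edgeR adjusted p = 0.181) and was higher in the Nrf2 eye of 1 of 5 mice.

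Entry of glucose into the pathway was read from 10 genes, of which 9 were tested. By edgeR 0 were called, where 3.60% and 2.73% of all genes tested were called higher and lower, and 2 had an unadjusted p under 0.05. DESeq2 called 1, the hexokinase Hk3, which was too low to be tested by edgeR. The glucose transporter Slc2a1 measured 1096 ± 225 CPM in control eyes and 834 ± 138 CPM in Nrf2 eyes, with a log2 fold change of -0.38 (SE 0.14, edgeR adjusted p = 0.202), and it was called lower with muscle markers as a covariate. The other gene with an unadjusted p under 0.05 was the hexokinase Hk2, named after its value was seen. It went the other way, with a log2 fold change of 0.75 (SE 0.35, edgeR adjusted p = 0.206), higher in 4 of 5 mice. The glycolytic genes Gpi1 and Pfkl had log2 fold changes of 0.16 and -0.19. The kinases that make NADP from NAD did not pass the test, with values of opposite sign. Cytosolic Nadk had a log2 fold change of -0.34 (SE 0.04, edgeR adjusted p = 0.0640), lower in 5 of 5 mice. Mitochondrial Nadk2 had 0.78 (SE 0.26, edgeR adjusted p = 0.0836), higher in 4 of 5 mice. DESeq2 and edgeR with muscle markers as a covariate called both and limma voom neither, and both had an unadjusted p under 0.05. Nadk2 was also called without the filter on low counts and without mouse 2.

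Enzymes and carriers of citrate and malate supply the substrates of Me1, Idh1 and Idh2. Of 10 such genes 2 rose and 1 fell, where 3.60% and 2.73% of all genes tested did, with a list median of -0.10. The pyruvate carboxylase Pcx rose from 192 ± 28.5 to 289 ± 22.99 CPM (log2 fold change 0.60, SE 0.12, edgeR adjusted p = 0.0297), and the mitochondrial citrate carrier Slc25a1 from 83.1 ± 12.9 to 142 ± 37.4 CPM (0.74, SE 0.20, edgeR adjusted p = 0.0498). Aco1, the cytosolic aconitase and iron sensor that makes the isocitrate used by Idh1, fell from 147 ± 26.5 to 81.3 ± 18.4 CPM (log2 fold change -0.86, SE 0.10, edgeR adjusted p = 0.00467). Leaving out mouse 1, 2 or 4 removed the calls of Pcx and Slc25a1, and leaving out mouse 3 also removed that of Slc25a1. Both were lost with rod markers as a covariate, and all 3 calls against a 1.5-fold change. Mdh1, Mdh2 and Acly, the most abundant that did not pass, had -0.07, -0.02 and -0.13.

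Genes that spend NADPH were the list with the most calls, as 5 of 13 rose and 0 fell, beside 3.60% and 2.73% of all genes tested, with a median of 0.63. DESeq2 called 6 of the 13. This list was chosen with earlier results of these data known, and the study had reported Gsr and Txnrd1 as upregulated by Nrf2. The count thus describes the listed genes and not NADPH users at large. Txnrd1, the cytosolic thioredoxin reductase, rose from 109 ± 14.8 to 1857 ± 186 CPM (log2 fold change 4.10, SE 0.09, edgeR adjusted p = 5.0e-05). Blvrb, Nqo1, Gsr and Cbr1, a flavin and biliverdin reductase, a quinone reductase, glutathione reductase and a carbonyl reductase, rose by 2.85, 1.77, 1.61 and 0.97 on the log2 scale. Each was higher in 5 of 5 mice. Abundant NADPH users of drug and lipid metabolism did not pass, with 0.19 for Por and -0.34 for Fasn. Beside these, the differences of Pgd and G6pdx lay between those of Cbr1 and Blvrb.

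**Figure D4:**
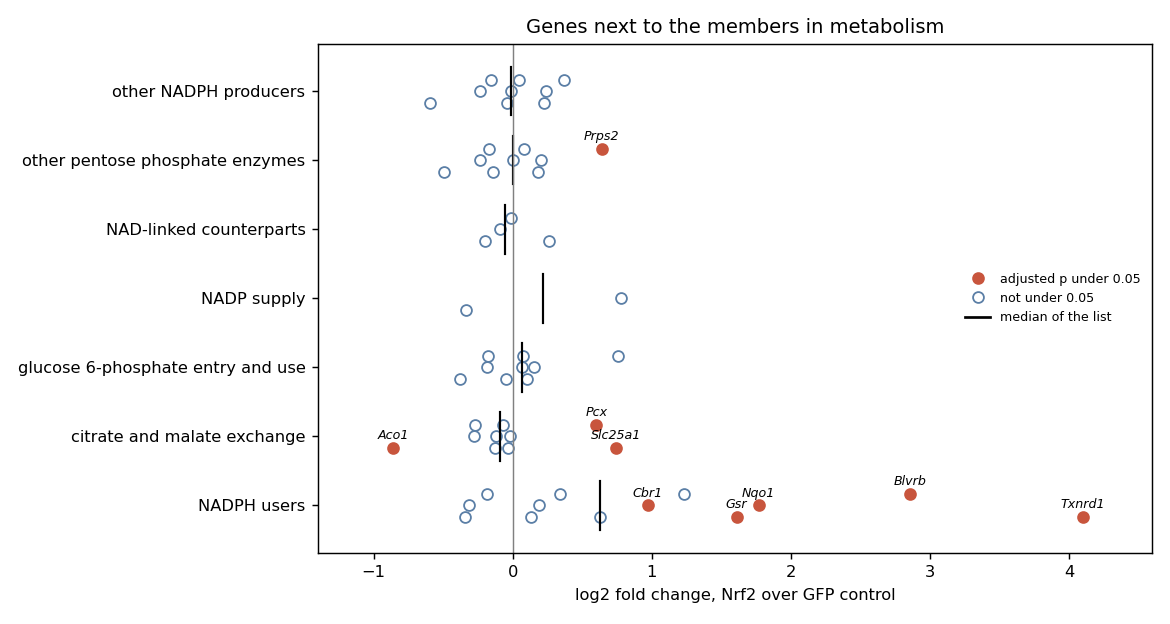
Log2 fold change (Nrf2 over GFP control, 5 mice) of each tested gene in 7 lists chosen by metabolic role, filled red where the edgeR adjusted p was under 0.05, with a bar at the median of each list. The NADPH users include 5 filled points, from Cbr1 at 0.97 to Txnrd1 at 4.10, and the lists of other NADPH producers, NAD-linked counterparts, NADP supply and glucose 6-phosphate entry include 0.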

How the data were processed

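RNA of the RPE eyecup was amplified with a low-input kit per the labels, and sequenced for 10 libraries (5 Nrf2 and 5 GFP control eyes). The authors aligned reads to mm10 with STAR and counted them per Ensembl gene with featureCounts, and in parallel ran Salmon 0.8.2. What they deposited are raw counts in whole numbers, 1 per gene and library. Which of these count tables was deposited, the strand setting and filters are not given in the sources used here. Symbols, exon lengths and positions came from GENCODE M21 (GRCm38), which held 99.1% of the gene identifiers. Promoter windows came from RefSeq (GRCm38.p6).

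Counts were tested in edgeR 4.0.16 (R 4.3.3) with filterByExpr, TMM scaling, the quasi-likelihood F test blocked on the mouse, and Benjamini-Hochberg adjustment. CPM and log2 differences (prior count 2) used TMM-scaled library sizes, and RPKM used library totals. The eyes of a mouse come from 1 animal, and their deviations from the group means correlated across genes with r from 0.19 to 0.71. The 95% intervals rest on the 5 within-mouse differences. Alternatives used DESeq2 1.42.0, limma 3.58.1 (voom), other scalings and filters, covariates and left-out mice, and the fit was tested on simulated data. All 10 genes passed the filter. The 10 genes, the lists and the alternatives were chosen with earlier results of these data known, except that the muscle covariate and the longest-transcript lengths were added after seeing the data. Named from the lists were all called genes and up to 3 of the most abundant others, of which 1 is not reported here. A count of 0 allows up to 3 counts, or 0.110 to 0.244 CPM, which covers counting error only.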

Additional observations from a re-analysis of the deposited data

Results flagged for a closer look

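One library stood apart in a single gene of the 10. The Nrf2 eye of mouse 3 had 1301 CPM of Taldo1, against 1036 to 1102 CPM in the other 4 Nrf2 eyes. The gap to the nearest eye was 0.73 of the whole range on the log2 scale, where 0.71 is the limit for 5 samples. Of the 20 groups examined (10 genes in 2 groups), about 1 would be expected to pass by chance. Among the Nrf2 eyes, that of mouse 3 also had the highest Pgd (608 CPM), Me1 (502 CPM), Nfe2l2 (438 CPM) and summed RPE markers (32160 CPM), and their part in the value was not tested. In the fit without mouse 3, Taldo1 was called as before.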

How the results depend on the processing

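G6pdx, Pgd and Taldo1 rose in the main fit and in all 16 alternatives run for each (other tools, scalings and filters, thinned counts, covariates, left-out mice, a test against a 1.5-fold change). Their log2 fold changes spanned 1.14 to 1.44, 2.12 to 2.37 and 1.02 to 1.08, and the highest adjusted p-values were 0.0423, 0.00364 and 0.0225. The other 7 genes passed in 0 of these alternatives, where Me1 spanned 0.20 to 0.37, Idh1 0.14 to 0.34 and Idh2 0.03 to 0.31. Values near 0 changed sign: with library totals only Rpia was at 0.0033 and Rpe at 0.0065, with thinned counts they were at 0.023 and 0.0031, and with muscle markers as a covariate Rpia was at 0.034. Leaving out 1 mouse gave -0.047 to 0.14 for Pgls, -0.090 to 0.19 for Rpia, -0.040 to 0.051 for Rpe and -0.40 to 0.061 for Tkt. The branch gap held at 0.92 to 1.01 with 1 mouse left out, while Idh1 minus Idh2 moved between 0.01 and 0.25.

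Over all genes, 1036 changed in the main fit, 1812 with DESeq2, 492 with rod markers as a covariate, 443 against a fold change of 1.5 and 584 to 857 with 1 mouse left out, with 584, 613 and 683 without mice 2, 4 and 5. The split of 589 higher and 447 lower became 523 and 232 without the mouse block and 411 and 173 without mouse 2, and with 1 mouse left out the lower calls numbered 173 to 292. Without the mouse block 755 changed, with G6pdx, Pgd and Taldo1 among them, and 0 other pentose phosphate genes in place of 1, as the call of Prps2 was lost. It changed no other call among the 10 genes and the 7 metabolic lists. With 1 mouse left out the calls numbered 0 to 1 for the other pentose phosphate genes, 0 to 1 for NADP supply and 1 to 3 for citrate and malate exchange. Without the filter on low counts 1 NADP supply gene and 1 glucose 6-phosphate entry gene were called, and with DESeq2 2 and 1. Rod markers as a covariate removed the calls of Prps2, Pcx and Slc25a1, the test against a 1.5-fold change those and that of Aco1, and muscle markers as a covariate added those of Nadk, Nadk2 and Slc2a1. The longer motif was in 1 member window in place of 3, and Pgd over Tkt per length in Nrf2 eyes was 0.86 with merged exons and 1.09 with the longest transcript. The cause of these changes was not tested. With 5 mice, differences inside the 95% intervals given cannot be resolved.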

Other observations

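Hk3, a hexokinase known from myeloid cells, was too low in most libraries to enter the test. It is named here because its values stood out after they were seen. Control eyes had 0.13 ± 0.09 CPM and Nrf2 eyes 3.90 ± 4.82 CPM (SD, n = 5 each), higher in 5 of 5 mice, beside a macrophage and microglia marker sum that was also higher in 5 of 5 mice. The part of those cells in the value was not tested. DESeq2, and edgeR without the filter on low counts, called it higher.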
